A study of Mus musculus with 8 samples.

Results

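The 3p arms of the let-7 hairpins were examined in small-RNA libraries of 4 WT and 4 Snd1 KO mouse livers. They were chosen by name and by being listed in these libraries, with earlier results on their levels known, and are 10 of the 1341 known mature miRNAs listed in any library. In the files they are mmu-let-7a-1-3p, mmu-let-7a-2-3p, mmu-let-7b-3p, mmu-let-7c-2-3p, mmu-let-7d-3p, mmu-let-7e-3p, mmu-let-7f-1-3p, mmu-let-7f-2-3p, mmu-let-7g-3p and mmu-let-7i-3p, written below without the species prefix. All of the mice were males of the strain C57BL/6N, 8 to 12 weeks old, sampled around noon without fasting, and each gave 1 library from the left lobe of the liver. The KO mice lacked the first exon of Snd1 in the germline, and thus in every cell from conception. The allele was made in embryonic stem cells of another strain and deleted with a CAG-Cre line, and the mice were then backcrossed to C57BL/6N and bred as littermates from heterozygous pairs. Snd1 is an RNA-binding protein with nuclease domains that has been linked to the decay of microRNAs in cultured cells. The comparison of genotypes addressed whether the level of microRNAs in liver depends on it.

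A let-7 hairpin is cut by Drosha and then Dicer into a short duplex of a 5p and a 3p strand. Argonaute keeps mainly the 5p strand, the guide, which represses messages of growth and of early development and is abundant in adult liver. The 3p strand, called the passenger, is mostly discarded and degraded, so that its level reflects both how much hairpin is cut and how much of the strand escapes decay. That the 3p arms are the rarer arms is what their name rests on, and their level against the 5p arm is described here with no test. The name did not hold in every library, since let-7d-3p was slightly above let-7d-5p in KO replicate 1, with a ratio of 1.01.

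The mature sequences of the 10 arms are shown because many of the results turn on how alike they are. They are given 5′ to 3′ from the RefSeq annotation of GRCm38.p6, which held all 10, with the seed (bases 2 to 8) in capitals. The guides let-7a-5p and let-7d-5p stand last for comparison.
let-7a-1-3p: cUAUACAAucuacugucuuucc
let-7c-2-3p: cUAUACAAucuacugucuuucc
let-7b-3p: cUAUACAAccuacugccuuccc
let-7f-1-3p: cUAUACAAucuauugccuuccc
let-7f-2-3p: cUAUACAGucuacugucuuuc
let-7d-3p: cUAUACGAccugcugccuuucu
let-7e-3p: cUAUACGGccuccuagcuuucc
let-7a-2-3p: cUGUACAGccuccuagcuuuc
let-7i-3p: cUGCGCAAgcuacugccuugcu
let-7g-3p: aCUGUACAggccacugccuugc
let-7a-5p: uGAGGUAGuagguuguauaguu
let-7d-5p: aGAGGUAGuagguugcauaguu

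The 5p arms share a seed, but the 3p arms do not. let-7a-1-3p, let-7b-3p, let-7c-2-3p and let-7f-1-3p have the seed UAUACAA, which miR-98-3p also has and which 1.24% of the 402 tested miRNAs with a sequence carry. Each of the other 6 arms has a seed of its own, found in no other tested miRNA. let-7a-1-3p and let-7c-2-3p are the same over all 22 bases. let-7f-2-3p, which is 21 bases long, differs from both by 1 base, A8G, counted from 1 at the 5′ end of let-7a-1-3p. let-7g-3p differs from every other arm at 16 or more positions when the arms are laid side by side from base 1 without gaps. This count depends on its annotated start, since from base 2 on let-7g-3p begins like let-7a-2-3p.

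The arms come from 6 chromosomes (GRCm38). let-7a-1-3p (chr13:48538188-48538209, minus strand), let-7f-1-3p (chr13:48537833-48537854) and let-7d-3p (chr13:48536024-48536045) lie together in exons of the non-coding gene 6720427I07Rik. let-7c-2-3p (chr15:85706664-85706685, plus strand) and let-7b-3p (chr15:85707379-85707400) lie together in the non-coding gene Lncppara. let-7e-3p (chr17:17830411-17830432) is in an intron of Spaca6, let-7g-3p (chr9:106178902-106178923) in an intron of Wdr82, and let-7f-2-3p (chrX:151912403-151912423) in an intron of Huwe1 beside Mir98. let-7a-2-3p (chr9:41536777-41536797) is in an intron of the non-coding gene 3110039I08Rik, and let-7i-3p (chr10:122985642-122985663) in an exon of the transcribed pseudogene D630033A02Rik.

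The libraries held an estimated 16223415 to 27528022 tags, and levels are given as deposited, in CPM, the number of tags in every 1000000 of a library. A single tag was worth 0.0363 to 0.0616 CPM. In 4 libraries, replicates 1 and 2 of WT together with replicates 2 and 3 of KO, known miRNAs took 75.9% to 78.7% of tags. They took 57.9% to 67.6% in the other 4, which were replicates 3 and 4 of WT together with replicates 1 and 4 of KO. The 57.9% was that of KO replicate 1, whose file is incomplete, and it assumes that its CPM refer to the whole library. These 4 and 4 libraries are called the higher-share and the lower-share libraries, and each set holds 2 of each genotype. Of the known miRNAs, 475 were at 1 CPM or more in at least 4 of the 8 libraries and were tested, among them all 10 let-7 3p arms. 8 of the 10 were at 1 CPM or more in every library, let-7a-2-3p in 7 and let-7g-3p in 6. All 5 hepatocyte markers, led by miR-122-5p, were listed in every library and summed to 246362 to 384155 CPM.

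let-7d-3p was by far the most abundant passenger arm. Its level was 1781, 1288, 6804 and 5774 CPM in WT replicates 1 to 4, and 8318, 2690, 2539 and 9799 CPM in KO replicates 1 to 4. The 4 lower-share libraries were all above the 4 higher-share ones, while the genotypes overlapped. It made up 83.0% to 95.4% of the summed level of the 10 arms, which ranged from 1552 to 10287 CPM. Without it the other 9 arms summed to 264 to 597 CPM, against 94349 to 142671 CPM for the 8 guide arms.

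let-7a-1-3p, let-7b-3p, let-7f-2-3p, let-7e-3p, let-7i-3p and let-7c-2-3p came next, with medians over the 8 libraries of 31.9 to 102 CPM. Their ranges overlapped, so that no order among these 6 could be read. let-7f-1-3p had a median of 13.995 CPM (range 11.4 to 24.2), below every library of let-7f-2-3p (31.5 to 69.4 CPM), the other passenger of the let-7f guide. let-7g-3p (0.61 to 3.51 CPM) and let-7a-2-3p (0.96 to 1.91 CPM) were the rarest, at 15 to 57 and 24 to 46 tags per library, and their ranges overlapped. A further let-7 passenger in the files, let-7c-1-3p, was at 0.37 to 1.49 CPM, or 8 to 38 tags, and miR-98-3p at 0.40 to 4.25 CPM.

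**Figure D1:**
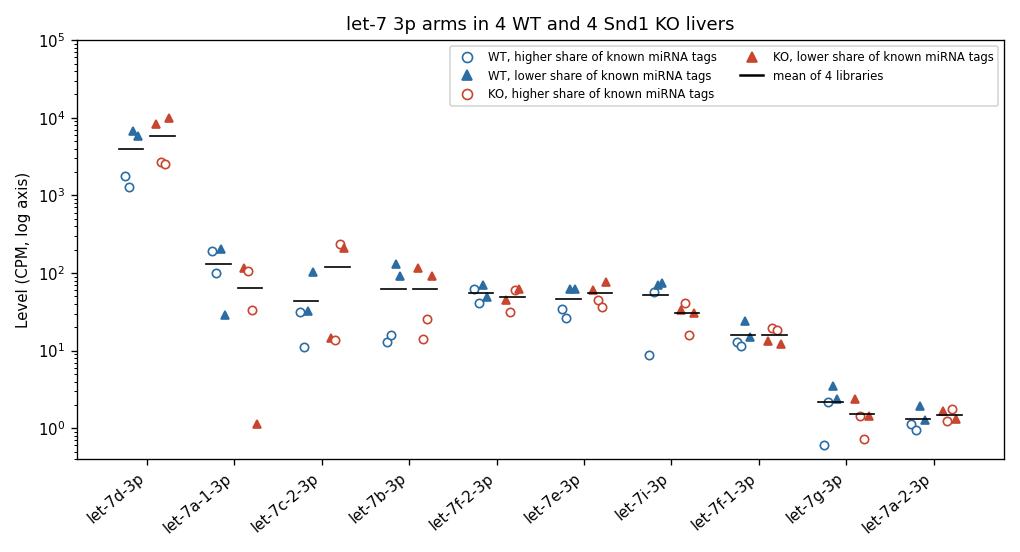
Level of each let-7 3p arm in CPM on a log axis, with 1 point per library, blue for WT and red for KO, open circles for higher-share and filled triangles for lower-share libraries, and bars at the mean of 4 libraries. let-7d-3p lies between 1288 and 9799 CPM, above every other arm, and the triangles of let-7d-3p, let-7b-3p and let-7e-3p all lie above the circles.

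No let-7 passenger arm differed between WT and KO livers by more than the spread between libraries of a genotype. limma on log2(CPM + 1), with Benjamini-Hochberg adjustment over the 475 miRNAs, called 0 of the 10 arms at an adjusted p of 0.05, where 0% of all tested were called. At an unadjusted p under 0.05 it found 0 of the 10, where 4.21% of the 475, or 20 miRNAs, passed. The KO values overlapped the WT values in all 10 arms, while 2.95% of tested miRNAs had no overlap. The log2 fold change was positive in 6 arms and negative in 4, with a median of 0.08, beside 196 positive and 279 negative and a median of -0.11 over all tested. The 95% intervals reached past a 2-fold change in 7 of the 10 arms.

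For let-7d-3p the mean was 3912 ± 2784 CPM in WT and 5837 ± 3770 CPM in KO (SD, n = 4), and the log2 fold change was 0.66 (SE 0.65, 95% interval -0.79 to 2.11, adjusted p = 0.944 from limma). Within the higher-share libraries KO was above WT by 0.79 on the log2 scale, and within the lower-share libraries by 0.53, with 2 mice a group in each. In each set both KO values were above both WT values, but how many of all tested miRNAs had this order was not counted. The log2 fold change was between 0.24 and 1.04 when each library was left out in turn, lowest without WT replicate 2.

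let-7b-3p, from the hairpin next to let-7c-2, was at 13.0, 16.1, 132 and 91.1 CPM in WT and 115, 14.1, 25.7 and 90.2 CPM in KO, in the order of the replicates. Each genotype thus had 2 low and 2 high libraries, and the means were alike, 63.1 ± 58.5 CPM in WT and 61.3 ± 49.2 CPM in KO (SD, n = 4). The log2 fold change was 0.14 (SE 0.89, 95% interval -1.85 to 2.12, adjusted p = 0.976 from limma). let-7e-3p, which lies beside miR-99b and miR-125a, was at 34.0, 26.1, 62.3 and 62.3 CPM in WT and 60.9, 44.5, 36.1 and 77.6 CPM in KO, with a log2 fold change of 0.28 (SE 0.39), or 0.043 without WT replicate 2 and 0.094 without KO replicate 4.

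let-7i-3p was at 8.85, 56.5, 69.3 and 75.4 CPM in WT and 33.8, 41.7, 16.1 and 30.5 CPM in KO. 3 WT libraries were above all 4 KO libraries, and WT replicate 1 was below them. The means were 52.5 ± 30.2 CPM in WT and 30.5 ± 10.7 CPM in KO (SD, n = 4), and the log2 fold change was -0.48 (SE 0.64, 95% interval -1.92 to 0.96, adjusted p = 0.971 from limma), and it ran from -1.18 without WT replicate 1 to -0.19 without WT replicate 4. KO minus WT was 0.18 within the higher-share and -1.15 within the lower-share libraries. let-7g-3p, the miRNA most like let-7i-3p across the libraries, had a log2 fold change of -0.29 (SE 0.35).

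The steadiest arms were those of let-7f and let-7a-2. let-7f-1-3p was at 15.8 ± 5.72 CPM in WT and 15.9 ± 3.74 CPM in KO, let-7f-2-3p at 55.5 ± 13.0 and 49.7 ± 14.6 CPM, and let-7a-2-3p at 1.32 ± 0.413 and 1.50 ± 0.259 CPM (SD, n = 4). Their log2 fold changes were 0.03 (95% interval -0.71 to 0.78), -0.18 (-0.92 to 0.56) and 0.12 (-0.35 to 0.59). For let-7f-1-3p and let-7f-2-3p a 2-fold difference in either direction thus lies outside the interval. let-7a-2-3p is near the pseudocount of 1 CPM, where a 2-fold difference is less than 1 on this scale, so its interval is less tight than it looks.

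**Figure D2:**
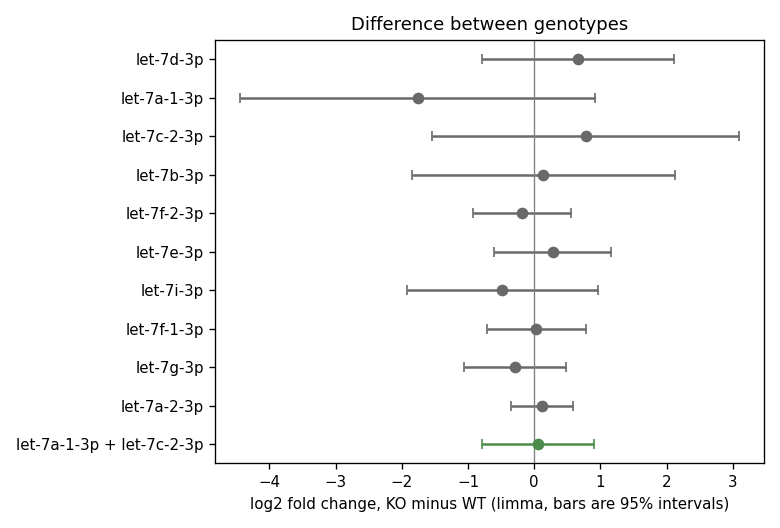
Log2 fold change of each let-7 3p arm, KO minus WT, on the log2(CPM + 1) scale from limma, with 95% intervals, and in green that of let-7a-1-3p and let-7c-2-3p summed into 1 row. All intervals include 0, and that of let-7a-1-3p is the widest (-4.44 to 0.92) while that of the sum is -0.79 to 0.90.

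The guide arms and the neighbours of the let-7 hairpins were also compared. Of the 8 let-7 guides and miR-98-5p, 1 had a positive and 8 a negative log2 fold change (median -0.24), and 0 were called. Of the 13 miRNAs whose hairpins lie beside let-7 hairpins (miR-98, miR-99a, miR-99b, miR-100, miR-125a and miR-125b arms), 8 were positive and 5 negative (median 0.08), and 0 were called. At an unadjusted p under 0.05 none of the 9 or the 13 passed.

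The largest difference in size among the 10 arms belonged to let-7a-1-3p, and the largest in the other direction to let-7c-2-3p, whose sequence is the same. let-7a-1-3p was at 194, 99.2, 202 and 29.2 CPM in WT and 118, 105, 33.5 and 1.12 CPM in KO. let-7c-2-3p was at 31.8, 11.1, 32.0 and 102 CPM in WT and 14.7, 13.9, 234 and 210.0 CPM in KO. Where let-7a-1-3p was low, in WT replicate 4 and KO replicates 3 and 4, let-7c-2-3p was high.

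The log2 fold change was -1.76 for let-7a-1-3p (SE 1.20, 95% interval -4.44 to 0.92, adjusted p = 0.853) and 0.78 for let-7c-2-3p (SE 1.04, 95% interval -1.54 to 3.09, adjusted p = 0.971), both from limma. The first was -0.47 without KO replicate 4. Summed, the pair was at 226, 110.3, 234 and 131 CPM in WT and 132, 119, 267 and 211 CPM in KO. The sum varied by 2.42-fold between the lowest and the highest library, while let-7a-1-3p alone varied by 180-fold and let-7c-2-3p alone by 21.0-fold. The sum was 175 ± 63.7 CPM in WT and 182 ± 69.7 CPM in KO (SD, n = 4). With the pair as 1 row, limma over the 474 rows gave a log2 fold change of 0.05 (SE 0.38, 95% interval -0.79 to 0.90, adjusted p = 0.976).

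The share of the pair that bore the name let-7a-1-3p was 85.9%, 89.9%, 86.3% and 22.3% in WT and 88.9%, 88.3%, 12.5% and 0.53% in KO. 5 libraries were thus between 85.9% and 89.9%, and the other 3 at 22.3% or below. In KO replicate 4 the share rests on about 27 of 5088 tags (exact 95% binomial interval 0.35% to 0.771%), and in WT replicate 4 on about 546 of 2448 tags (20.7% to 24.0%). The tag numbers are estimates from rounded CPM values, and the intervals cover counting error only. The low shares occurred in both genotypes and in both sets of libraries.

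A mapped tag that holds the mature sequence alone cannot be placed on either hairpin. The hairpins are shown for this reason, from RefSeq, with the mature 3p arm in capitals: Mirlet7a-1 at chr13:48538179-48538272 (minus strand) and Mirlet7c-2 at chr15:85706603-85706697 (plus strand).
Mirlet7a-1: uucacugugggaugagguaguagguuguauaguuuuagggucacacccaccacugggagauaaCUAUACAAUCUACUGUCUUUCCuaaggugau
Mirlet7c-2: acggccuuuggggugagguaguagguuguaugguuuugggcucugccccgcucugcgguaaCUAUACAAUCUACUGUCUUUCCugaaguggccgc
The run of bases that both hairpins share around the arm is 26 bases long, with 3 bases before the mature arm and 1 after it. How tags that fit several places were assigned is not given in the sources used here, so the values of the 2 names are uncertain, and their sum is the value that can be compared between mice.

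Among names with a RefSeq sequence, only 2 other sets with an identical mature sequence reached 1 CPM in at least 4 libraries. Of the 475 tested miRNAs 402 had such a sequence, and names without one were not searched. miR-465a-3p, miR-465b-3p and miR-465c-3p summed to only 0.99 to 2.35 CPM, of which at most 51.6% bore the first name. miR-199a-3p and miR-199b-3p, named like these after their values were seen, also changed places. miR-199a-3p had 93.98%, 5.31%, 12.77% and 90.99% of its pair in WT and 10.84%, 95.69%, 92.01% and 8.84% in KO, while the sum varied by 3.53-fold. Its low shares fell in other libraries than those of the let-7 pair, except for KO replicate 4, which was low in both.

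**Figure D3:**
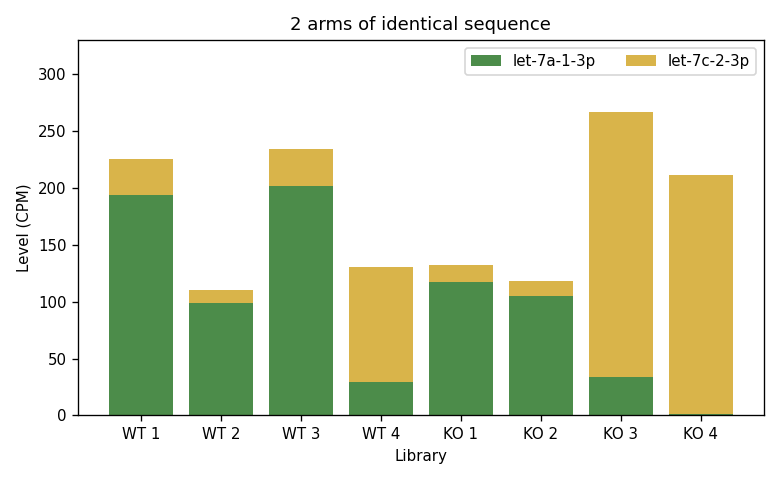
Level in CPM of let-7a-1-3p (green) and let-7c-2-3p (yellow), stacked, in each of the 8 libraries. The stacks are between 110.3 and 267 CPM high, while the green part is 1.12 CPM in KO 4 and 202 CPM in WT 3.

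Within a hairpin family, the share of the 3p arm among the tags of both arms spanned orders of magnitude. For let-7d it was 13.1%, 9.44%, 37.2% and 28.4% in WT and 50.2%, 24.0%, 16.5% and 44.04% in KO. The other families were lower. let-7e had 3.76% to 12.4%, let-7i 0.273% to 3.63%, let-7f 0.306% to 1.21%, let-7b 0.0721% to 0.529% and let-7g 0.00405% to 0.0433%. let-7a and let-7c, whose passengers include the identical pair, had 0.161% to 0.471% when summed. Within every library let-7d had the highest share, let-7e the next and let-7g the lowest, while the ranges of let-7i, let-7f, let-7a with let-7c, and let-7b overlapped from each to the next.

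Over all 8 let-7 families the 3p arms took 1.09% to 8.70% of the tags, and 0.206% to 0.621% without let-7d. let-7d-5p varied less than its partner, from 8253 to 14548 CPM, a 1.76-fold range against 7.61-fold for let-7d-3p. The ratio of let-7d-3p to let-7d-5p therefore ran from 0.104 in WT replicate 2 to 1.01 in KO replicate 1.

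The share did not differ between genotypes beyond the spread between libraries of a genotype in any family. For let-7d the mean share was 22.04 ± 13.0% in WT and 33.7 ± 16.0% in KO (SD, n = 4). The log2 ratio of the arms differed by 0.94 (SE 0.71, 95% interval -0.64 to 2.51, adjusted p = 0.998 from limma over 140 names with both arms), and by 0.52 without WT replicate 2. Within each set of libraries both KO shares were above both WT shares, with 2 mice a group. How many of the 140 names had this order was not counted. The let-7d shares were 24.0% and 16.5% against 13.1% and 9.44% in the higher-share libraries, and 50.2% and 44.04% against 37.2% and 28.4% in the lower-share ones. A covariate for the sets cannot move the difference, since each set holds 2 libraries of each genotype. With it the adjusted p for let-7d was 0.327 from limma. In 6 of the 8 families the difference was positive and in 2 negative, with a median of 0.13, beside 68 positive and 72 negative and a median of -0.01 over the 140. limma called 0 of the 8, and 0% of the 140, and at an unadjusted p under 0.05 it found 0 of the 8 and 3 of the 140. KO and WT shares overlapped in all 8, where 2.14% of the 140 had no overlap. The directions of let-7a (-1.36) and let-7c (0.94) rest on the names of the identical pair.

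**Figure D4:**
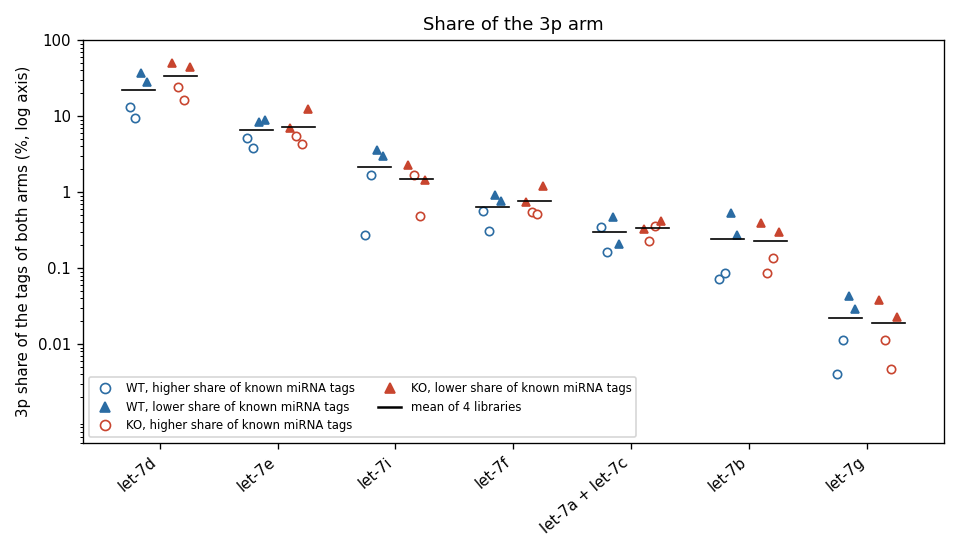
Share of the 3p arm among the tags of both arms, in percent on a log axis, for each let-7 family and for let-7a and let-7c summed, with colours and symbols for genotype and set of libraries and bars at the mean of 4 libraries. let-7d lies between 9.44% and 50.2% and let-7g between 0.00405% and 0.0433%, and the triangles of let-7d, let-7e, let-7f, let-7b and let-7g lie above their circles.

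Some passenger arms varied widely between mice of a genotype. The median SD of log2(CPM + 1) within a genotype was 0.81 over the 10 arms, but 0.55 over 9 rows with the identical pair summed, close to the 0.52 over all 475 tested. let-7a-1-3p (SD 2.11), let-7c-2-3p (1.81), let-7b-3p (1.54), let-7d-3p (1.12) and let-7i-3p (1.07) lay above the 91st percentile of tested miRNAs, and let-7a-2-3p (0.20) at the 3.79th. The SD was larger than that of the guide in 6 arms (let-7a-1-3p, let-7b-3p, let-7c-2-3p, let-7d-3p, let-7e-3p and let-7i-3p) and smaller in the other 4. For let-7d-5p it was 0.27, and for let-7g-5p 0.65 against 0.53 for let-7g-3p. The log2(CPM + 1) scale narrows the spread of arms near 1 CPM, such as let-7g-3p and let-7a-2-3p. From the lowest to the highest library, let-7g-3p varied more than its guide, by 5.75-fold against 3.01-fold. By the same measure let-7a-2-3p still varied less than let-7a-5p, by 1.99-fold against 2.20-fold. The pair summed had an SD of 0.55, against 0.41 for let-7a-5p.

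For let-7b-3p, let-7d-3p and let-7e-3p this spread followed the 2 sets of libraries. The lower-share libraries were all above the higher-share ones in these 3 of the 10 arms, where 21.1% of tested miRNAs had this order, and the reverse order was found in 0 of 10 arms and 9.68% of tested miRNAs. let-7b-3p was at 13.0 to 25.7 CPM in the higher-share and 90.2 to 132 CPM in the lower-share libraries, with means 6.22-fold apart. This log2 difference of 2.60 was the highest of the 475. let-7d-3p was at 1288 to 2690 and 5774 to 9799 CPM, with means 3.70-fold apart, and let-7e-3p at 26.1 to 44.5 and 60.9 to 77.6 CPM, with means 1.87-fold apart. let-7b-5p, the guide of let-7b, had the same order, with means 1.63-fold apart, whereas let-7a-5p and let-7g-5p had the reverse order.

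The share of the 3p arm showed this order more often. It was higher in every lower-share library in 5 of the 8 families (let-7b, let-7d, let-7e, let-7f and let-7g), where 12.1% of the 140 names had this order, and the reverse was found in 0 of 8 and 11.4%. For let-7g the share was 0.00405% to 0.0115% in the higher-share and 0.0226% to 0.0433% in the lower-share libraries. The share also moves with the 5p arm. By log2 level in lower-share minus higher-share libraries, let-7f-5p was at -0.75 against 0.02 and 0.24 for its 3p arms. let-7g-5p was at -1.10 against 0.64 for let-7g-3p. The guides of let-7b, let-7d and let-7e were at 0.70, 0.03 and -0.10. The sets were formed from the share of known miRNA tags, to which the 10 arms added at most 10287 CPM. They cross the genotypes, and no test was made of them.

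Several other quantities moved with the sets. The lower-share libraries held 16223415 to 24129922 tags and the higher-share ones 24520322 to 27528022. The summed level of the hepatocyte markers (5 of 5 listed) was 328691 to 384155 CPM in the higher-share and 246362 to 299656 CPM in the lower-share libraries. That of the erythroid markers (4 of 4) was 13338 to 17397 and 7363 to 9826 CPM, and that of the endothelial markers (2 of 2) was 12518 to 19516 and 5812 to 6653 CPM. The sum of the 13 miRNAs of hairpins beside let-7 hairpins went the other way, with 16966 to 20304 CPM in the higher-share and 23825 to 30826 CPM in the lower-share libraries. Singly, 4 of the 13 were above in all lower-share libraries and 1 was below in all of them. The leukocyte, stellate and biliary lists (5 of 5 each) overlapped between the sets, and none of the markers was at 0 in any library. The hepatocyte markers are themselves known miRNAs and a large part of the share that formed the sets. Their lower sum in the lower-share libraries is thus not independent of how the sets were formed. That sum is led by miR-122-5p. The log2 level in lower-share minus higher-share libraries was 0.04 for miR-192-5p, -0.13 for miR-194-5p and -0.59 for miR-148a-3p. In bulk liver, fewer cells of a type and less RNA per cell cannot be told apart. The part of depth or of these miRNAs in the levels of the passenger arms was not tested.

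Base composition also moved with the sets. Across the 402 tested miRNAs with a RefSeq sequence, which share the same 8 libraries, the GC content of the mature miRNA and the log2 difference between lower-share and higher-share libraries had a Pearson r of 0.58. The median difference was 0.60 in the 205 miRNAs with a GC content of 50% or more and -0.26 in the 197 below. The passenger arms had a GC content of 36.4% to 59.1% and the guides of 31.8% to 45.5%. let-7a-1-3p and let-7c-2-3p, of 1 sequence and with 36.4% GC, had differences of -1.38 and 0.75. let-7b-3p and let-7d-3p, both with 50% GC, had 2.60 and 1.92. let-7i-3p and let-7g-3p, both with 59.1% GC, had 0.96 and 0.64.

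**Figure D5:**
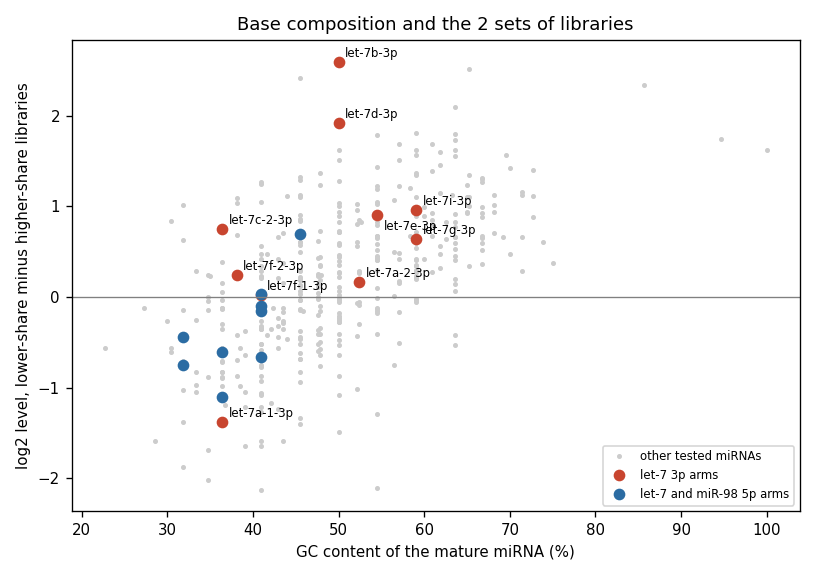
Log2 level in the lower-share minus the higher-share libraries (vertical) against the GC content of the mature miRNA in percent (horizontal), with let-7 3p arms in red, let-7 and miR-98 5p arms in blue and other tested miRNAs in grey. let-7b-3p (2.60) and let-7d-3p (1.92) stand above nearly all others, and the guides, with 31.8% to 45.5% GC, lie mostly below 0.

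Snd1 nuclease has been linked to cuts at CA and UA dinucleotides in microRNAs. The passenger arms hold 2 to 4 of them each, with a median of 3.5, against a median of 2.5 over the tested miRNAs with a sequence, of which 92.5% hold at least 1. With every arm holding some, the arms cannot be split into those with and without them.

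A passenger arm did not in general follow its guide from mouse to mouse. Over the 8 libraries, Pearson r of log2(CPM + 1) between an arm and its guide was 0.90 for let-7b-3p, 0.53 for let-7c-2-3p and 0.23 for let-7a-1-3p, and between -0.51 and 0.02 for the other 7. Among the 474 other tested miRNAs, let-7c-5p ranked 18th by likeness to let-7c-2-3p and let-7b-5p 32nd for let-7b-3p, while let-7d-5p ranked 292nd for let-7d-3p and let-7i-5p 444th for let-7i-3p. Nor did the passenger arms follow each other as a group. Over the 45 pairs of arms the median r was 0.28, and 10 pairs were below 0. The 3 highest, all between chromosomes, were 0.98 for let-7d-3p and let-7e-3p, 0.93 for let-7b-3p and let-7d-3p and 0.90 for let-7g-3p and let-7i-3p. The lowest was -0.75, for let-7a-1-3p and let-7c-2-3p. All values here for either of these names rest on the uncertain naming of the identical pair.

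Outside the 10 arms, the 5 miRNAs whose pattern was most like the summed passenger level, which is mostly let-7d-3p, were all 3p arms, as are 47.4% of the tested miRNAs. They were miR-1981-3p (r 0.99), miR-433-3p (0.98), miR-877-3p (0.97), miR-139-3p (0.97) and miR-6985-3p (0.97). For the sum without let-7d-3p they were others, miR-186-5p (r 0.92), miR-671-3p (0.91), miR-3073a-5p (0.89), miR-6978-3p (0.89) and miR-339-3p (0.88). These values describe 8 points that share library, depth and base composition.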

How the data were processed

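Small RNA of 18 to 30 bases from 4 WT and 4 KO livers, 1 library per mouse, was sequenced on the BGISEQ-500 platform. The authors removed contaminant and low-quality tags, mapped with Bowtie (version not given in the sources used here) to GRCm38 and compared genotypes with DEGseq. The deposited values are CPM (headed TPM in the files), tags per 1000000 tags of a library with no division by length, rounded to 2 decimals. Library totals of 16223415 to 27528022 tags were estimated as the number that makes low values whole tags, within 0.0051 CPM. The file of KO replicate 1 lacks the genomic classes, and its values sum to 648120 CPM, while those of the other files sum to about 1000000. Its values were taken as CPM of the whole library. Its known miRNA share of 57.9%, its place in the lower-share set and its levels rest on this.

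A known miRNA missing from a file was set to 0. Those that reached 1 CPM in 4 or more libraries were tested with limma 3.58.1 (R 4.3.3) on log2(CPM + 1) with a mean-variance trend, adjusting by Benjamini-Hochberg over all tested, at a threshold of 0.05. Arm ratios, summed over hairpins of a letter, were fitted alike over 140 names. Both fits were tested on simulated data. A fold change on this scale understates that of low miRNAs. Tags are PCR reads without molecular identifiers.

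Named were the 10 arms, further let-7 3p rows, miR-98, their 5p arms, and the 5 miRNAs most like their sum. Members and lists were chosen with earlier results of these data known. Sequences and positions are from RefSeq and host genes from GENCODE. Replicate numbers were not taken as pairs. Alternatives were pseudocounts of 0.1, 0.5 and 5 CPM, other filters and scalings, a covariate for the share of known miRNAs, the replicate block, identical arms summed, single arms and each library left out. Sums and correlations used Python 3.11.15.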

Additional observations from a re-analysis of the deposited data

Results flagged for a closer look

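In WT replicate 4, 22.3% of the identical pair let-7a-1-3p and let-7c-2-3p bore the first name, far from the other 3 WT libraries, the nearest of which had 85.9%. The gap was 0.941 of the range of the WT group. This was the only such value among 60 groups of 4 libraries that were checked for 1 far value, of which chance gives about 3.

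The files also list tags of the let-7 precursor family in their Rfam class, which the comparisons did not use. They were at 1524, 2093, 946 and 1417 CPM in WT and 802, 1123, 2840.41 and 716.97 CPM in KO, lowest in KO replicate 4 and highest in KO replicate 3. There is no control library for this class, and the values lie far above the limit of 3 tags that a count of 0 allows.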

How the results depend on the processing

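No let-7 3p arm and no let-7 arm ratio was called under any alternative run, and the lowest adjusted p was 0.163, for let-7d-3p with the covariate for the share of known miRNAs. Over all known miRNAs 0 were called, but 1 with that covariate and 0 to 1 with each library left out (1 without WT replicate 2). Those at an unadjusted p under 0.05 were 20, 65 with the covariate, 66 with no filter, 11 at a minimum of 10 CPM and 14 to 29 with each library left out. The median over all tested moved from -0.11 to -0.03 with median ratio scaling and to -0.07 per known miRNA tag. The positive let-7g ratio difference of 0.02 became -0.076 and -0.026 with pseudocounts of 0.1 and 0.5. With each library left out, let-7b-3p ran from -0.39 to 0.70 (below 0 without WT replicates 1 or 2 or KO replicates 1 or 4), let-7f-1-3p from -0.096 to 0.245 (below 0 without WT replicates 1 or 2 or KO replicates 2 or 3), let-7f-2-3p from -0.32 to 0.019 (above 0 without KO replicate 2) and let-7c-1-3p from -0.24 to 0.048 (above 0 without KO replicate 1). The ratio differences ran from -0.26 to 0.67 for let-7b, -0.20 to 0.34 for let-7e, -0.042 to 0.49 for let-7f, -0.39 to 0.43 for let-7g and -1.03 to 0.225 for let-7i. Their sign changed without WT replicates 1 or 2 or KO replicates 1 or 4 for let-7b and let-7g, WT replicate 2 or KO replicate 4 for let-7e, WT replicate 2 for let-7f, and WT replicates 3 or 4 or KO replicate 3 for let-7i. The cause was not tested. let-7a-1-3p (-2.40 to -0.47), let-7a-2-3p (0.042 to 0.23), let-7c-2-3p (0.11 to 1.43, lowest without KO replicate 3), let-7d-3p (0.24 to 1.04), let-7e-3p (0.043 to 0.45), let-7g-3p (-0.58 to -0.088) and let-7i-3p (-1.18 to -0.19) kept their sign, as did the ratio differences of let-7a (-2.11 to -0.35), let-7c (0.37 to 1.53) and let-7d (0.52 to 1.36). Same-numbered WT and KO libraries had deviations with r of -0.46, 0.35, -0.53 and 0.07. The negative values join a higher-share and a lower-share library, so these values cannot show whether the numbers pair the mice. The replicate block called 0 miRNAs, with 15 at an unadjusted p under 0.05. Count models of recovered tags were not run, because rounding to 2 decimals leaves an error of up to 0.0812 to 0.138 of a tag, over the limit of 0.1 in 6 of the 8 libraries. The tag numbers printed are thus estimates. At 8 to 57 tags a library, depth limits let-7g-3p, let-7a-2-3p and let-7c-1-3p.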
